A study of Mus musculus with 16 samples.

Results

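The 10 genes described here encode scavenger receptors and related proteins that bind or take up modified low-density lipoprotein (LDL). They are Cd36, Scarb1, Msr1, Marco, Cd68, Cxcl16, Olr1, Stab1, Lrp1 and Cd5l, taken by gene symbol from the 15871 entries of the deposited count table. All 10 passed the filter on low counts that left 13527 entries for testing. The libraries came from peritoneal macrophages of wild-type C57BL/6 mice aged 8 weeks, drawn to the peritoneum by an injection of 6% soluble starch, and held in culture under 4 conditions for 48 h. Group L_C had low glucose with 27.5 mM mannitol as the osmotic control, L_O had low glucose with oxidized LDL (ox-LDL), H_C had 33 mmol/L glucose, and H_O had 33 mmol/L glucose with ox-LDL, with 4 libraries in each group. The labels give the ox-LDL dose as 50 mg/ml in both ox-LDL groups, a unit that is printed here as it stands and could not be checked. The L_O label does not name mannitol, so whether that group had it is unknown. In L_O against L_C a difference in mannitol and the presence of ox-LDL therefore cannot be told apart. For the same reason, high glucose and a rise in osmotic load cannot be told apart in H_O against L_O. The difference between the ox-LDL effects uses L_O too and carries the same limit. Nothing in the labels says that the replicates came from separate mice or cultures, so all p-values refer to the spread among these libraries, which may be technical.

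Scavenger receptors bind LDL that has been oxidized, acetylated or aggregated. Their uptake is not shut down as cell cholesterol rises, and so lets macrophages fill with cholesterol ester and become foam cells, the lipid-laden cells of the atherosclerotic plaque. The receptors are unrelated in structure and are sorted into lettered classes: Cd36 and Scarb1 are class B, Msr1 and Marco class A, Cd68 class D, Olr1 class E, Cxcl16 class G and Stab1 class H. Lrp1 is an endocytic receptor with many ligands, and Cd5l is a secreted protein made of scavenger receptor cysteine-rich domains.

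Library totals lay between 32596640 and 41712885 counts. The 7 general macrophage markers were present in every library, with a summed level of 15630 to 19210 CPM (counts relative to library size after TMM scaling), most of it from Lyz2, while B cell markers summed to at most 2.53 CPM, T and NK cell markers to at most 12.3 CPM, neutrophil markers to at most 6.00 CPM and eosinophil markers to at most 23.6 CPM. Markers of mesothelial cells and fibroblasts, most of them collagen genes by level, summed to 62.8 to 87.5 CPM in L_C, 25.6 to 40.2 CPM in L_O, 41.3 to 218 CPM in H_C and 39.8 to 111 CPM in H_O. The resident-macrophage regulator Gata6 stood at 2.25 to 5.92 CPM and Timd4 at 0.197 to 2.55 CPM. Replicate 4 of L_C stood apart from the other libraries: mitochondrial genes took 3.72% of its counts against 1.48 to 2.30% elsewhere, and the chi-square per degree of freedom between it and the other L_C libraries was 99.4 to 104 against 6.59 to 19.4 for other replicate pairs. The fold changes of the 10 genes against L_C, and the counts of calls, are given with and without it. In bulk RNA, fewer cells of a type and less RNA per cell cannot be told apart.

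The 10 genes covered a wide range in level per length, which here is CPM per kilobase of exon (the union of annotated exons in GENCODE M21, build mm10). In L_C the order was Cd68 (1576 ± 569, SD, n = 4), Cd36 (495 ± 43.3), Lrp1 (279.8 ± 12.3), Msr1 (55.8 ± 4.94), Cxcl16 (37.1 ± 3.00), Cd5l (14.1 ± 3.09), Scarb1 (12.7 ± 0.863), Marco (8.47 ± 1.92), Stab1 (6.94 ± 0.365) and Olr1 (0.703 ± 0.311). Neighbours in this order had separate ranges over the libraries except Cd5l with Scarb1 and Marco with Stab1. The same quantity put Cd36 first in L_O, at 1288 ± 19.7 against 1220.0 ± 20.9 for Cd68, with no overlap between their libraries, whereas in H_O the libraries of Cd68 (1243 ± 32.6) and Cd36 (1188 ± 89.8) overlapped. In H_C the order again opened with Cd68 (1315 ± 11.7), Cd36 (429 ± 11.9) and Lrp1 (305 ± 3.89). Olr1 was last in every group, at 0.277 ± 0.102 in H_O. Dividing by the longest transcript instead moved Scarb1 up, to 34.8 and above Cd5l in L_C, because its annotated exons are far longer than its longest transcript. Together the 10 genes took 0.862 to 0.960% of all counts in L_C, 1.16 to 1.22% in L_O, 0.897 to 0.910% in H_C and 1.13 to 1.24% in H_O, a description with no test. The mean of Cd36 went from 1777 CPM in L_C to 4626 CPM in L_O, and from 1541 CPM in H_C to 4264 CPM in H_O. The means of Lrp1 and Cd68 did not rise with ox-LDL, so the joint share does not describe each gene.

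**Figure D1:**
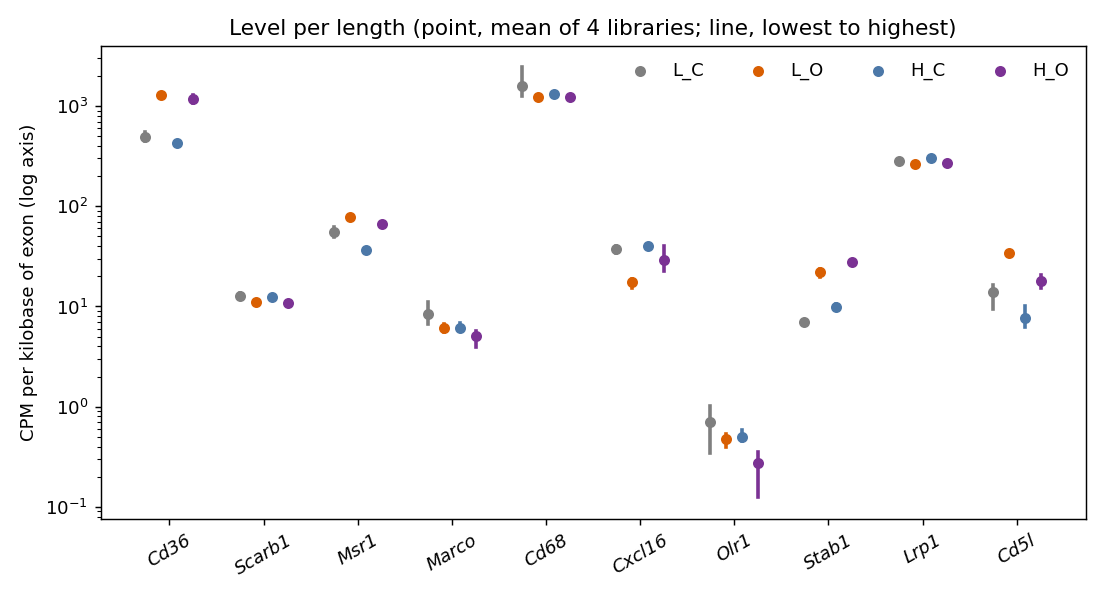
Level of each gene in CPM per kilobase of exon, on a log axis, in the 4 groups (points, means of 4 libraries; lines, lowest to highest library). Cd68, Cd36 and Lrp1 stand highest and Olr1 lowest in all groups, and Cd36 moves up to the level of Cd68 in both ox-LDL groups.

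The comparisons of L_O with L_C and of H_O with H_C asked what ox-LDL, the agent used to induce foam cells, changed at each glucose level. They share no library, but both were read from a fit of all 16 libraries with a shared estimate of the spread. Their adjusted p-values therefore depend on every library and are not independent. Of the 10 genes, the same 4 were higher with ox-LDL at both glucose levels (Stab1, Cd36, Cd5l and Msr1), by 1.39-fold for Msr1 in low glucose up to 3.19-fold for Stab1 in low glucose. Cxcl16 and Scarb1 were lower at both levels, Marco was lower in low glucose and Lrp1 in high glucose. The counts were 4 higher and 3 lower of 10 in each comparison, at a Benjamini-Hochberg adjusted p under 0.05 in edgeR's quasi-likelihood test over all 13527 entries. Over all those entries, 12% were higher and 13.8% lower in low glucose, and 10.4% were higher and 11.5% lower in high glucose. The median log2 fold change of the 10 genes was -0.15 in low and -0.13 in high glucose, against 0.000928 and 0.00896 over all entries. Scaled by library totals alone, all entries moved from 1622 higher and 1867 lower to 2857 and 1392 in low glucose, and from 1406 and 1556 to 2174 and 1166 in high glucose. With L_C replicate 4 left out, the counts among the 10 genes were 4 higher and 4 lower in each comparison, against 1891 and 1990 of all entries in low glucose and 1964 and 2001 in high glucose.

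Cd36 (chr5:17781690-17888801, minus strand, mm10), the class B receptor that binds oxidized LDL and long-chain fatty acids, read 1740, 1774, 1985 and 1610 CPM in L_C (replicates 1 to 4) and 4523, 4636, 4682 and 4661 CPM in L_O. In high glucose Cd36 read 1554, 1530, 1489 and 1591 CPM in H_C and 4598, 3852, 4187 and 4421 CPM in H_O. Every library with ox-LDL was above every library without it, and the lowest of them, H_O replicate 2, was still well clear of the highest control. The log2 fold change was 1.38 ± 0.057 (SE, 95% interval 1.26 to 1.499, adjusted p = 9.71e-12) in low glucose, or 1.34 without L_C replicate 4, and 1.47 (1.35 to 1.59, adjusted p = 3.53e-12) in high glucose.

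Stab1 (chr14:31139013-31168641, minus strand) encodes stabilin-1, an endocytic receptor that clears acetylated LDL and matrix fragments. Its libraries read 68.5, 76.2, 72.6 and 68.3 CPM in L_C and 229.7, 205, 242 and 236 CPM in L_O. In high glucose Stab1 read 94.8, 100.3, 109 and 101 CPM in H_C and 291, 276, 290.5 and 284 CPM in H_O. The 4 groups did not overlap at all, in the order L_C, H_C, L_O and H_O. The log2 fold change with ox-LDL was 1.68 ± 0.056 (1.56 to 1.79, adjusted p = 7.53e-13) in low glucose, or 1.65 without L_C replicate 4, and 1.495 ± 0.055 (1.38 to 1.61, adjusted p = 2.22e-12) in high glucose. Among all tested entries the rise of Stab1 in low glucose ranked 89 from the top, that of Cd36 145 and that of Cd5l 174.

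Cd5l (chr3:87357881-87371073, plus strand), also called AIM, is secreted by tissue macrophages, supports their survival and enters fat cells through CD36. It read 31.6, 30.01, 33.5 and 19.4 CPM in L_C and 72.8, 66.8, 65.9 and 73.0 CPM in L_O. In high glucose Cd5l read 15.2, 20.5, 12.6 and 13.9 CPM in H_C and 41.7, 31, 36.1 and 35.8 CPM in H_O. The ox-LDL libraries lay above their own controls at each glucose level, but H_O reached down to the top of L_C, where replicate 4 was the low library. The log2 fold change was 1.28 ± 0.15 (0.97 to 1.60, adjusted p = 3.43e-06) in low glucose, or 1.14 without L_C replicate 4, and 1.22 ± 0.15 (0.90 to 1.54, adjusted p = 9.83e-06) in high glucose.

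The stretch of 250 bases before the annotated start is shown for Cd36, Stab1 and Cd5l because they had the 3 largest rises with ox-LDL among the 10 genes. It is also shown for Olr1 as an example of a promoter with a motif match. Those of Cd68 and Lrp1 hold matches too and are not printed. The sequences are from RefSeq (GRCm38.p6, the assembly of mm10), 5′ to 3′ on the gene's strand, and 7 of the 10 genes matched an entry, the others being Msr1, Scarb1 and Cxcl16. They lie at chr5:17835897-17836146 (Cd36, minus strand, before a start inside the annotated span of the gene), chr14:31168642-31168891 (Stab1, minus strand), chr3:87357631-87357880 (Cd5l, plus strand) and chr6:129507166-129507415 (Olr1, minus strand). Capitals mark the match to AP-1 in Olr1, at bases -60 to -54 from the start.
Cd36: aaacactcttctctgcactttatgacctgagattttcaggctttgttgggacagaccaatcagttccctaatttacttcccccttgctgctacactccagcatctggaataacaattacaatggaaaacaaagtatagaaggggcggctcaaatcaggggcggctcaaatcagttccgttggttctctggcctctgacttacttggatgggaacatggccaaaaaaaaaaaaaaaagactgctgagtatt
Stab1: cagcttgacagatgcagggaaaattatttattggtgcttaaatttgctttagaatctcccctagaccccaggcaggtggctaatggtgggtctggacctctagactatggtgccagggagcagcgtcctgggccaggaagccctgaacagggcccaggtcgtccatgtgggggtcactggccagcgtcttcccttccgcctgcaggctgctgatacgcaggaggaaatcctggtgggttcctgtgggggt
Cd5l: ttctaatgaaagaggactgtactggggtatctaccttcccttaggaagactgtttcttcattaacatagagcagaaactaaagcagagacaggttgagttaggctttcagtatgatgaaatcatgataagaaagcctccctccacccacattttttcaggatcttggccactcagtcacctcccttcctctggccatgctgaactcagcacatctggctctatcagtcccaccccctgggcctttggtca
Olr1: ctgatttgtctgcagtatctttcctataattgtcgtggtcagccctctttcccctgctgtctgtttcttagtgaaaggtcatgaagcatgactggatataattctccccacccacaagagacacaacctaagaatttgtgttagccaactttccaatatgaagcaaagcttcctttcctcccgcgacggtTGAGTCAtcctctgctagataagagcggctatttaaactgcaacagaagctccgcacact

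The 7 motifs were searched on both strands of the 7 promoters, from 250 bases before to 50 bases after the start, and the share of all 32851 promoters of that length with a match is given beside each. The nuclear receptor repeats AGGTCANAGGTCA (0.0396% of promoters) and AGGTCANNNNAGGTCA (0.0152%), the PU.1 motif GAGGAAGT (3.20%) and TATAAA (13.6%) matched none of the 7. The AP-1 motif TGANTCA (7.81%) matched Olr1 at a single site and Cd68 at 2 sites, at bases -149 to -143 and -24 to -18. The antioxidant response core TGACNNNGC (12.4%), which can overlap AP-1 sites, and the Sp1 motif GGGCGGG (25.6%) each matched Lrp1 alone, at -160 to -152 and -100 to -94. None of these letters stood in the windows of Cd36, Stab1 or Cd5l, which says nothing of the factors elsewhere in the genes.

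Msr1 (chr8:39581685-39642673, minus strand), the class A receptor first known for taking up acetylated LDL, read 314, 351, 361 and 389.6 CPM in L_C and 522, 481, 488 and 477 CPM in L_O. In high glucose Msr1 read 217, 237, 243 and 235 CPM in H_C and 424, 444, 401 and 403.5 CPM in H_O. All 4 groups were separate, in the order H_C, L_C, H_O and L_O, so that each ox-LDL group lay above both groups without it. The log2 fold change was 0.47 ± 0.058 (0.35 to 0.60, adjusted p = 6.45e-06) in low glucose, or 0.52 without L_C replicate 4, and 0.84 ± 0.059 (0.72 to 0.97, adjusted p = 6.14e-09) in high glucose. Marco (chr1:120474538-120505024, minus strand), the other class A receptor and one that binds bacteria, went the other way in low glucose. Marco read 12.8, 15.4, 15.5 and 21.5 CPM in L_C and 12.8, 10.8, 11.6 and 11.4 CPM in L_O. In high glucose its libraries read 11.2, 13.0, 11.4 and 11.3 CPM in H_C and 11.1, 10.9, 9.59 and 7.53 CPM in H_O. The highest L_O library lay just under the lowest of L_C, and the top of L_C was replicate 4. The log2 fold change of Marco was -0.49 ± 0.14 (-0.78 to -0.19, adjusted p = 0.0149) in low glucose, but -0.33 without L_C replicate 4, which ended the call (adjusted p = 0.0511), and -0.26 (-0.56 to 0.03, adjusted p = 0.219) in high glucose.

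Cxcl16 (chr11:70453983-70459984, minus strand) is both the class G receptor for oxidized LDL and, once cut from the membrane, the chemokine that draws Cxcr6-bearing T cells. It read 107, 117, 102 and 122 CPM in L_C and 55.7, 57.0, 51.8 and 46.0 CPM in L_O. In high glucose Cxcl16 read 119, 118, 125 and 121 CPM in H_C and 81.7, 119.9, 82.1 and 67.6 CPM in H_O. The low glucose groups were far apart, while in high glucose H_O replicate 2 lay among the H_C libraries and the other 3 lay below them. Its log2 fold change was -1.09 ± 0.12 (-1.35 to -0.84, adjusted p = 2.2e-06) in low glucose, or -1.05 without L_C replicate 4, and -0.46 ± 0.12 (-0.71 to -0.20, adjusted p = 0.00972) in high glucose, or -0.65 without H_O replicate 2. An opposite-strand gene, Zmynd15, shares 552 exon bases with Cxcl16, 18.3% of its exons. Zmynd15 itself had a mean of 185 counts per library against 1691 to 4878 for Cxcl16, and with the strand setting unknown their reads cannot be told apart there.

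Scarb1 (chr5:125277087-125341094, minus strand), the receptor for high-density lipoprotein that also binds modified LDL, moved little. It read 111, 103, 101 and 117 CPM in L_C and 99.3, 87.0, 96.8 and 93.4 CPM in L_O. In high glucose Scarb1 read 110.3, 107, 102 and 103 CPM in H_C and 93.2, 88.7, 91.7 and 94.2 CPM in H_O. The groups with and without ox-LDL were separate at each glucose level by a narrow margin. Scarb1 fell by 12.6% (95% interval -19.2 to -5.54%, adjusted p = 0.0111) in low glucose, a log2 fold change of -0.15 without L_C replicate 4 (adjusted p = 0.0198), and by 12.8% (-19.4 to -5.75%, adjusted p = 0.0115) in high glucose. Both calls ended with no scaling beyond library totals (adjusted p = 0.109 and 0.0597). The call in low glucose also ended with only the 8 libraries compared (adjusted p = 0.053). Lrp1 (chr10:127538161-127621148, minus strand), a very large endocytic receptor for remnant lipoproteins and aggregated LDL, was likewise steady. It read 5274, 4783, 4870 and 4900 CPM in L_C and 4662, 4350, 4731 and 4765 CPM in L_O. In high glucose Lrp1 read 5424, 5464, 5302 and 5401 CPM in H_C and 4895, 4519, 4919 and 4796 CPM in H_O. Every L_O library lay just below L_C, with hardly a gap, whereas H_C stood above every H_O library. Its log2 fold change was -0.10 ± 0.039 (adjusted p = 0.0743) in low glucose, which passed without L_C replicate 4 (adjusted p = 0.0361), and -0.17 ± 0.039 (adjusted p = 0.00316) in high glucose, which did not pass with no scaling beyond library totals (adjusted p = 0.0605).

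Cd68 (chr11:69664213-69666153, minus strand) encodes macrosialin, a class D protein found mostly on late endosomes and lysosomes and widely used to mark macrophages. It read 1642, 1648, 1581 and 3052 CPM in L_C and 1553, 1531, 1498 and 1554 CPM in L_O. In high glucose Cd68 read 1668, 1660, 1634 and 1650 CPM in H_C and 1558, 1510, 1608 and 1576 CPM in H_O. Apart from L_C replicate 4 all libraries lay between 1498 and 1668 CPM, and the ox-LDL libraries were below the others at each glucose level. Cd68 did not pass with all libraries (log2 fold change -0.37 ± 0.14, adjusted p = 0.0683, in low glucose and -0.08, adjusted p = 0.761, in high glucose). Without L_C replicate 4 the value was -0.08 in both comparisons and passed in each (adjusted p = 0.0226 and 0.0152). In low glucose Cd68 also passed without L_C replicate 1, 2 or 3, which leaves replicate 4 as 1 of 3 (-0.45, -0.45 and -0.46, adjusted p = 0.0351, 0.0364 and 0.0254), and in high glucose with only the 8 libraries compared (-0.08, adjusted p = 0.0267). Olr1 (chr6:129485244-129507165, minus strand), which encodes LOX-1, the main receptor for oxidized LDL of endothelial cells, was close to the lower limit of the assay with 17 to 124 counts per library. It read 1.22, 1.99, 3.67 and 3.16 CPM in L_C and 1.90, 1.68, 1.77 and 1.41 CPM in L_O. In high glucose Olr1 read 2.07, 1.81, 1.61 and 1.65 CPM in H_C and 0.448, 1.10, 1.14 and 1.25 CPM in H_O. L_C alone spanned the whole of L_O, and H_O lay below H_C. The log2 fold change was -0.57 ± 0.32 (-1.25 to 0.11, adjusted p = 0.218) in low glucose, or -0.44 without L_C replicate 4, and -0.85 ± 0.33 (-1.55 to -0.15, adjusted p = 0.0795) in high glucose, the latter passing without L_C replicate 1 (adjusted p = 0.0454) and in DESeq2 (adjusted p = 0.0494).

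**Figure D2:**
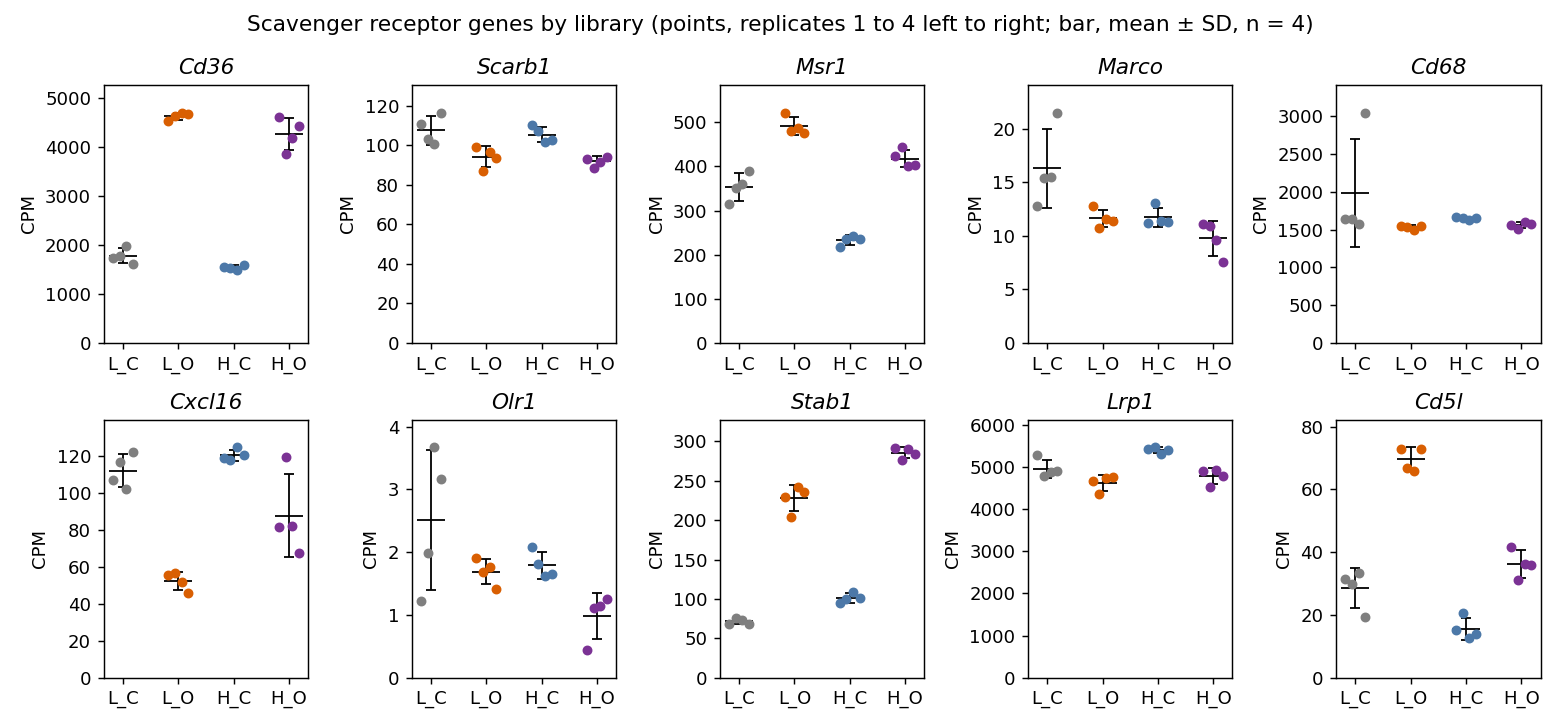
CPM of the 10 genes in each of the 16 libraries (points, replicates 1 to 4 from left to right; bars, mean ± SD, n = 4 per group; every vertical axis starts at 0). Cd36, Stab1 and Cd5l are higher in L_O and H_O than in their controls, Cxcl16 is lower, and the high L_C library of Cd68 is replicate 4 at 3052 CPM.

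Markers of macrophage subsets moved with the same comparisons. The summed level of 12 markers of large peritoneal macrophages ran from 646.5 to 888 CPM in L_C against 325 to 356 CPM in L_O, and from 486 to 644 CPM in H_C against 317 to 396 CPM in H_O. For 9 markers of small peritoneal macrophages and monocytes it ran from 997 to 1071 CPM in L_C against 495 to 541 CPM in L_O, and from 766 to 799.9 CPM in H_C against 374 to 416 CPM in H_O. Of the large-macrophage markers none was higher with ox-LDL, and 6 of 12 were lower in low and 5 of 12 in high glucose. Of the small-macrophage and monocyte markers 5 of 9 were lower in low and 3 of 9 in high glucose, and Clec10a was higher at both levels. Over all tested entries, 12% were higher and 13.8% lower with ox-LDL in low glucose, and 10.4% and 11.5% in high glucose. Most of the small-macrophage and monocyte sum came from Itgax (256 to 796 CPM) and Clec12a (76.8 to 253.5 CPM). Most of the large-macrophage sum came from Fn1 (206.8 to 619.5 CPM) and F10 (67.6 to 178.8 CPM). For the endothelial cells that carry much of the Stab1 and Olr1 of other tissues, the defining markers Pecam1 (0 to 1.34 CPM), Cdh5 (0.0907 to 1.01 CPM), Tek (at 0 in 12 libraries) and Emcn (at 0 in 11 libraries) were at or near 0, although Vwf read 45.9 to 97.8 CPM and Kdr 19.6 to 35.7 CPM. The summed level of the 6 endothelial markers, nearly all of it from Vwf and Kdr, was 67.6 to 77.4 CPM in L_O and 67.8 to 77.0 CPM in H_O against 104 to 129 CPM in L_C and 125 to 129 CPM in H_C. Eosinophil markers summed to 14.2 to 20.7 CPM in L_C and 19.7 to 23.6 CPM in H_C against 3.69 to 4.98 CPM in L_O and 4.70 to 5.76 CPM in H_O. Nearly all of that sum was Siglecf (3.69 to 23.6 CPM), since Ccr3 read at most 0.237 CPM and Epx, Prg2 and Ear6 had no entry. The part of macrophage subsets, endothelial cells or other cell types in the changes of the 10 genes was not tested.

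The comparison of H_C with L_C asked what high glucose changed against the osmotic control. That of H_O with L_O asked how cells with ox-LDL differed between high and low glucose, where mannitol is not named for L_O. Both share libraries with the ox-LDL comparisons, so the values of each stand side by side and are not independent. Msr1 and Cd5l were lower and Stab1 was higher in high glucose in both. Cxcl16 was 1.67-fold higher in high glucose with ox-LDL and did not pass without it. In H_C against L_C, 2 of the 10 genes were higher (Stab1 and Lrp1) and 4 lower (Msr1, Cd5l, Cd36 and Marco), where 5.03% of all entries were higher and 7.75% lower. In H_O against L_O, 2 were higher (Cxcl16 and Stab1) and 2 lower (Cd5l and Msr1), where 2.71% of all entries were higher and 3.39% lower. The median log2 fold change of the 10 genes was -0.23 in the first and -0.08 in the second, against -0.00453 and 0.00306 over all entries. Scaled by library totals alone, all entries in H_C against L_C moved from 680 higher and 1049 lower to 927 and 841. Without L_C replicate 4 the counts among the 10 genes were 2 higher and 3 lower in H_C against L_C (922 and 1265 of all entries), and 2 and 2 in H_O against L_O, where all entries moved from 367 higher and 459 lower to 749 and 1014. Subset markers moved with high glucose too. Of the large peritoneal macrophage markers 4 of 12 were lower in H_C against L_C and 1 of 12 in H_O against L_O. For the small peritoneal macrophage and monocyte markers 3 of 9 were lower in each, with none of either list higher, and their part in the glucose values of the 10 genes was not tested.

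Cd5l had the largest change of the 10 genes with high glucose. It went from 28.6 ± 6.29 CPM (SD, n = 4) in L_C to 15.6 ± 3.45 CPM in H_C, and from 69.6 ± 3.80 CPM in L_O to 36.2 ± 4.38 CPM in H_O. Cd5l fell by 0.88 (95% interval -1.20 to -0.56, adjusted p = 0.000957) on the log2 scale without ox-LDL and by 0.95 (-1.25 to -0.64, adjusted p = 0.000766) with it. Without ox-LDL the groups overlapped through L_C replicate 4, which at 19.4 CPM was below H_C replicate 2. Leaving that library out gave a log2 fold change of -1.03 (adjusted p = 9.87e-06), and with ox-LDL every H_O library lay below every L_O library.

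Msr1 went from 354 ± 31.3 CPM in L_C to 233 ± 11.2 CPM in H_C, a log2 fold change of -0.60 ± 0.059 (-0.73 to -0.48, adjusted p = 3.9e-06), or -0.56 without L_C replicate 4. With ox-LDL it went from 492 ± 20.8 CPM to 418 ± 19.99 CPM, a smaller value of -0.23 ± 0.058 (-0.36 to -0.11, adjusted p = 0.0213) that ended above the threshold without L_O replicate 1, H_O replicate 3 or H_O replicate 4 (adjusted p = 0.0849, 0.068 and 0.0692). Cd36 went from 1777 ± 155 CPM in L_C to 1541 ± 42.5 CPM in H_C (log2 fold change -0.21 ± 0.057, -0.33 to -0.09, adjusted p = 0.0224), with the groups just separate. That value of Cd36 was -0.25 without L_C replicate 4 (adjusted p = 0.00128) and did not pass with no scaling beyond library totals (adjusted p = 0.0748). The call also ended with only the 8 libraries compared (adjusted p = 0.0945), without L_C replicate 3 (-0.15, adjusted p = 0.0781), without H_C replicate 2 (adjusted p = 0.0551) and without H_C replicate 3 (adjusted p = 0.0867). With ox-LDL, Cd36 read 4626 ± 70.9 CPM in L_O and 4264 ± 323 CPM in H_O, and the difference did not pass (-0.12, -0.24 to 0.00210, adjusted p = 0.265).

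Stab1 rose from 71.4 ± 3.76 CPM in L_C to 101 ± 5.73 CPM in H_C (log2 fold change 0.50 ± 0.056, 0.39 to 0.62, adjusted p = 1.57e-05), or by 0.48 without L_C replicate 4. In the presence of ox-LDL it rose from 228 ± 16.4 CPM to 285.5 ± 7.08 CPM (0.32 ± 0.055, 0.21 to 0.44, adjusted p = 0.00133). High glucose and ox-LDL thus each went with more Stab1, while for Msr1 and Cd5l high glucose went with less and ox-LDL with more. Cxcl16 read 112 ± 9.07 CPM in L_C and 121 ± 2.98 CPM in H_C, which overlapped (0.10, -0.15 to 0.36, adjusted p = 0.636, or 0.15 without L_C replicate 4). Among the ox-LDL groups it was 52.6 ± 4.92 CPM in L_O and 87.8 ± 22.4 CPM in H_O (0.74 ± 0.12, 0.48 to 1.00, adjusted p = 0.00112), or 0.55 without H_O replicate 2 (adjusted p = 0.000826). Even the lowest H_O library of Cxcl16 stood above the highest of L_O.

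Lrp1 was higher in H_C (5398 ± 69.3 CPM) than in L_C (4957 ± 217 CPM), by 8.90% (adjusted p = 0.0484, and 0.00949 to 0.119 over the alternatives, of which 11 of 26 kept the call). Without L_C replicate 4 the log2 fold change of Lrp1 was 0.12 (adjusted p = 0.0331). Marco was lower in H_C (11.7 ± 0.868 CPM against 16.3 ± 3.69 CPM, log2 fold change -0.48 ± 0.14, adjusted p = 0.0322), but the groups overlapped and the call ended without L_C replicate 4 (-0.31, adjusted p = 0.0876). It also ended without H_C replicate 1, 3 or 4 (adjusted p = 0.084, 0.080 and 0.080). The same held with only the 8 libraries compared (0.082) and with array quality weights (0.054), and 19 of 26 alternatives kept the call of Marco. Neither passed with ox-LDL present (Lrp1 0.05, adjusted p = 0.567; Marco -0.25, adjusted p = 0.353). Scarb1 differed by -0.03 in both comparisons (adjusted p = 0.771 and 0.81), with 95% intervals from -0.14 to 0.08 without and -0.15 to 0.08 with ox-LDL, and the former value was 0.00973 without L_C replicate 4. Cd68 gave -0.26 in H_C against L_C (adjusted p = 0.258), a value that turned to 0.03 without L_C replicate 4 (adjusted p = 0.574), and 0.03 in H_O against L_O (adjusted p = 0.95). Olr1 gave -0.49 (-1.17 to 0.19, adjusted p = 0.358), or -0.36 without L_C replicate 4, in H_C against L_C. In H_O against L_O Olr1 gave -0.77, where the groups did not overlap and the interval lay below 0 (-1.47 to -0.07), but the value did not pass after adjustment (adjusted p = 0.202).

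**Figure D3:**
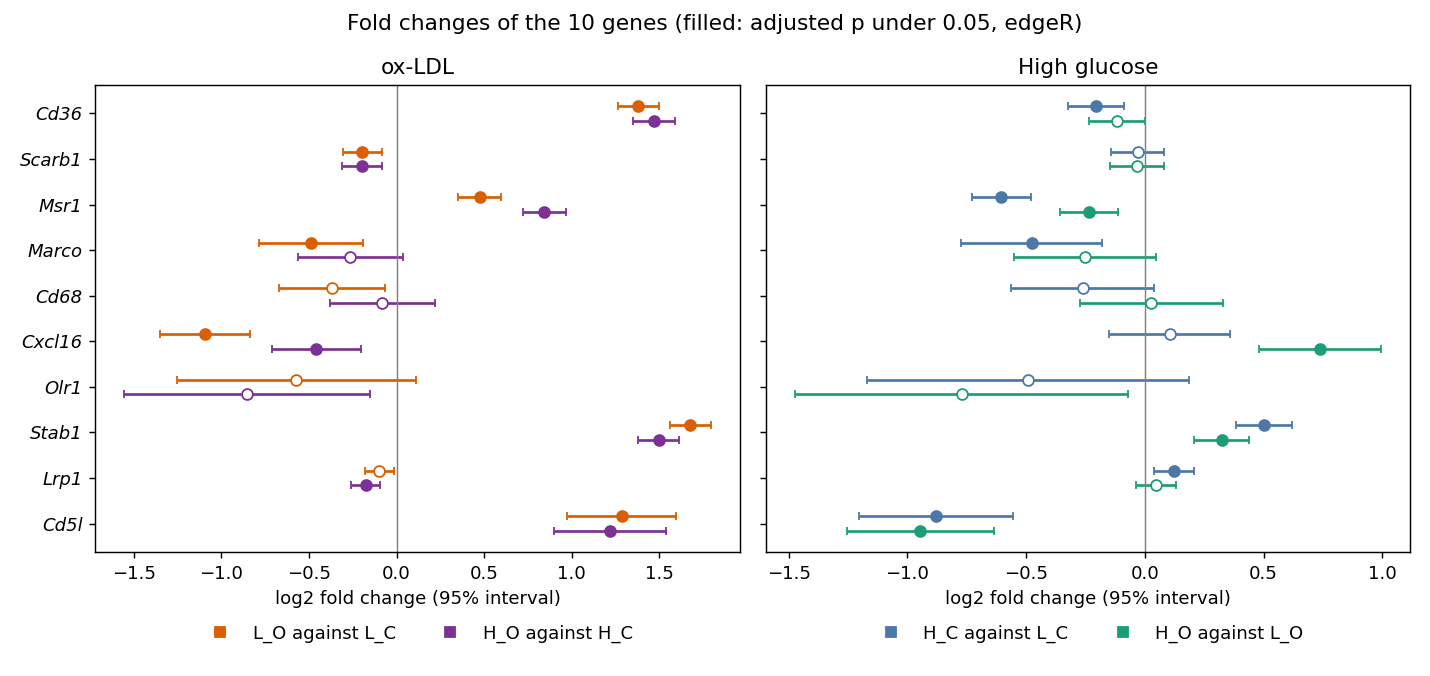
Log2 fold changes of the 10 genes with 95% intervals, for ox-LDL at each glucose level (left) and for high glucose without and with ox-LDL (right); filled points have an edgeR adjusted p under 0.05. Stab1, Cd36, Cd5l and Msr1 lie right of 0 in both ox-LDL comparisons, and Cd5l and Msr1 lie left of 0 in both glucose comparisons.

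The difference between the ox-LDL effects at both glucose levels was tested directly. None of the 10 genes passed in edgeR, where over all entries 0.00739% were higher and 0.00739% lower, 1 entry in each direction, and 1162 had an unadjusted p under 0.05. Msr1, Cxcl16 and Stab1 were among the latter. Msr1 came nearest, with an effect of ox-LDL larger in high glucose by 0.37 on the log2 scale (95% interval 0.20 to 0.54, unadjusted p = 0.000312, adjusted p = 0.114). It passed in DESeq2 (adjusted p = 0.00588), in limma-voom with array quality weights (0.0322) and without L_C replicate 1 (0.035) or L_C replicate 4 (0.32, adjusted p = 0.045). Cxcl16 had a difference of 0.63 (0.27 to 1.00, unadjusted p = 0.00173, adjusted p = 0.202), which passed in DESeq2 (0.0294), and Stab1 one of -0.18 (-0.34 to -0.01, unadjusted p = 0.0346, adjusted p = 0.536). In limma-voom without weights and with the replicate block the count was also 0. Without L_C replicate 4 Msr1 was the 1 gene of the 10 that passed, where 41 of all entries were higher and 12 lower, and the differences were 0.59 for Cxcl16, -0.16 for Stab1, 0.13 for Cd36 and 0.08 for Cd5l, the last with its sign changed. For Cd36 the difference was 0.09 (-0.08 to 0.26) and for Cd5l -0.07 (-0.51 to 0.38), so a change in the effect of ox-LDL on Cd5l as low as -0.51 is within its interval. The intervals are not adjusted for the number of entries tested.

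Other receptors give the setting for these changes. For this list and those that follow, the shares of all tested entries with ox-LDL were 12% higher and 13.8% lower in low glucose. They were 10.4% and 11.5% in high glucose. In the glucose comparisons they were 5.03% higher and 7.75% lower without ox-LDL, and 2.71% and 3.39% with it. Of 22 other scavenger receptor genes 17 could be tested. With ox-LDL, 4 of them were higher and 3 lower in low glucose (median log2 fold change -0.12), and 3 and 2 in high glucose (median -0.07). Mrc1, the mannose receptor, rose by 1.13 and 1.09 on the log2 scale (adjusted p = 9.71e-12 and 1.43e-11), the lysosomal receptor Scarb2 by 0.49 and 0.48, and the class A collectin Colec12 by 0.51 and 0.41. Cd163, the haemoglobin receptor, made up the count in low glucose (0.86, adjusted p = 0.0494) and was singled out after its value was seen. Clec7a, the beta-glucan receptor Dectin-1, fell by 0.71 and 0.65, and Cd14, the co-receptor for lipopolysaccharide, fell by 0.75 and 0.31, while Tlr4 fell by 0.23 in low glucose. In high glucose 2 of the 17 were higher and 2 lower without ox-LDL, and 3 and 2 with it. Cd14 rose by 0.74 and 1.19 with high glucose (adjusted p = 3.37e-06 and 1.88e-08), and Mrc1 fell by 0.33 and 0.36 and Clec7a by 0.54 and 0.48. None of the 17 passed for the difference between the ox-LDL effects, but Cd14 did without L_C replicate 4 (0.48, adjusted p = 0.0343).

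Among 16 lipoprotein receptors and their handlers, 15 were tested, and with ox-LDL 6 were higher and 4 lower at each glucose level (medians 0.06 and -0.02). Mylip, which encodes a ubiquitin ligase that acts on lipoprotein receptors, rose by 0.60 and 0.84. Lrp8, a receptor for apolipoprotein E and reelin, rose by 1.48 and 1.59, the adaptor Dab2 by 0.96 and 1.20, and the sorting receptor Sort1 by 0.53 and 0.41. Lrp4 and Lrp12 were among the genes called lower at both levels. The mean of Lrp4 went from 31.5 CPM in L_C to 25.8 CPM in L_O and from 30.7 CPM in H_C to 24.6 CPM in H_O. That of Lrp12 went from 477 to 439 CPM and from 456 to 387 CPM. In high glucose none of the 15 was higher, with 3 lower without ox-LDL and 2 with it, Lrp12 among the latter at -0.18 (adjusted p = 0.00908).

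**Figure D4:**
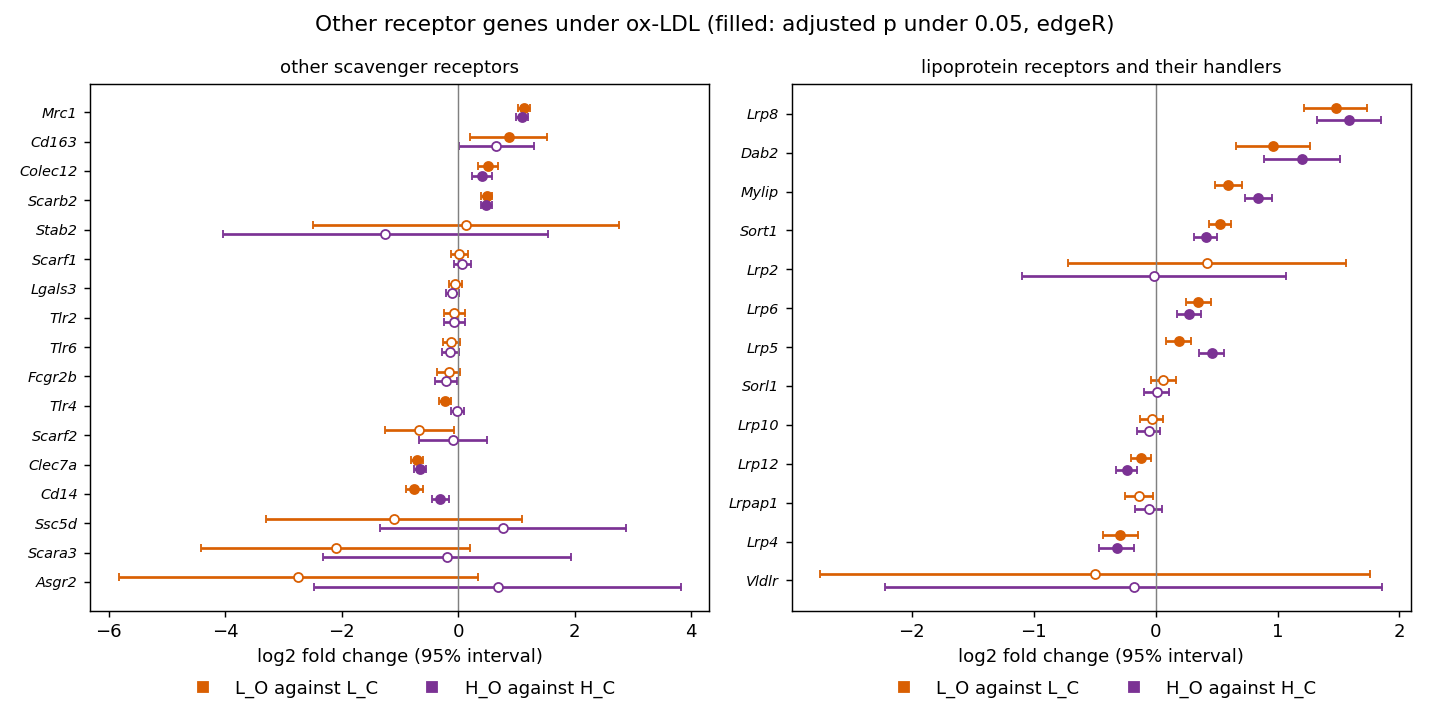
Log2 fold changes with 95% intervals under ox-LDL at both glucose levels for the other scavenger receptors (left) and for those lipoprotein receptors and handlers that are reported (right); filled points have an edgeR adjusted p under 0.05. Mrc1 and Lrp8 have the highest filled points of their panels, and Clec7a and Cd14 the lowest on the left.

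Partners, adaptors and sheddases of the 10 proteins were measured for 19 of 20 listed genes, of which 4 were higher and 8 lower with ox-LDL in low glucose, and 3 and 5 in high glucose (medians -0.09 and -0.05). Adam17, a protease that can cut Cxcl16 and other receptors from the cell surface, fell by 0.68 and 0.71 (adjusted p = 3.02e-09 and 2.01e-09). The kinase gene Src fell by 1.35 and 0.73, and the tetraspanin gene Cd9, whose protein sits beside CD36 in the membrane, fell by 0.43 and 0.50. Thbs1, which encodes thrombospondin-1, a ligand of CD36, rose by 0.45 and 0.86. In high glucose 1 of the 19 was higher and 4 lower without ox-LDL, with Calr at -0.35 and the kinase gene Fyn at -0.36, and 2 were higher and 2 lower with it, where Cav1 rose by 0.65.

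Of 28 regulators known to act on some of these genes, 27 were tested, and with ox-LDL 4 were higher and 15 lower in low glucose (median -0.22), and 6 and 8 in high glucose (median -0.13). Pparg, the nuclear receptor best known for inducing Cd36, fell by 0.80 and 0.89 (adjusted p = 7.27e-08 and 2.09e-08) in the libraries where Cd36 rose, and its partner gene Rxra rose by 0.35 and 0.24. Fos, a subunit of AP-1, rose by 1.28 and 1.41, while Jun fell by 0.31 and 0.29 and Junb by 0.37 and 0.48. Maf rose by 0.94 and 0.81. Srebf2, the sterol-sensing regulator of cholesterol synthesis, fell by 0.40 and 0.30. In high glucose 2 of the 27 were higher and 5 lower without ox-LDL, with Srebf2 at -0.25 (adjusted p = 0.000398), and Srebf2 was the only call with ox-LDL, at -0.15 (adjusted p = 0.0303), which ended above the threshold with the replicate block and in 5 of the fits that left out a library.

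Of 16 genes that carry lipid from uptake to storage or efflux, 2 were higher and 7 lower with ox-LDL in low glucose (median -0.14), and 2 and 8 in high glucose (median -0.10). Plin2, the coat protein of lipid droplets, rose by 0.91 and 0.81, and Lipa, the lysosomal acid lipase, by 0.12 in low glucose (adjusted p = 0.0438). Abca1, which loads cholesterol onto apolipoprotein A-I, rose by 0.44 in high glucose. In low glucose its mean was 171 CPM in L_C and 167 CPM in L_O. Abcg1 fell by 0.44 in low glucose (adjusted p = 1.45e-07) and Apoe by 0.30 in high glucose (adjusted p = 3.93e-05). Both were also called lower with ox-LDL at the other glucose level. Fabp4, the fatty acid carrier, fell by 0.66 and 0.78, Npc2, which moves cholesterol out of lysosomes, by 0.46 and 0.47, and the cholesterol esterifying enzyme Soat1 by 0.17 and 0.28. In high glucose 1 of the 16 was higher and 6 lower without ox-LDL, and 1 and 3 with it. Apoe rose by 0.42 in both (adjusted p = 6.62e-06 and 1.18e-05), Lpl, the lipoprotein lipase, fell by 0.89 and 0.83, and Abca1 fell by 0.59 without ox-LDL. None of the lipid handling, regulator, partner or lipoprotein receptor genes tested passed for the difference between the ox-LDL effects in edgeR. Without L_C replicate 4 the storage and efflux genes Abca1 (0.42, adjusted p = 0.0315) and Abcg1 (0.28, adjusted p = 0.0234) passed for it, as did 2 of the regulators, Irf8 among them (0.28, adjusted p = 0.045).

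When L_C replicate 4 was left out, the calls of the 5 lists in the ox-LDL and glucose comparisons kept their direction and stayed under the threshold, except those of Cd81, a partner gene, in L_O against L_C (0.39, adjusted p = 0.0985) and of Acsl1, a lipid handling gene, in H_C against L_C (-0.20, adjusted p = 0.0524). Other genes passed in addition. Over all entries the calls also grew without this library, from 367 higher and 459 lower to 749 and 1014 in H_O against L_O. They went from 680 and 1049 to 922 and 1265 in H_C against L_C, and from 1406 and 1556 to 1964 and 2001 in H_O against H_C. In H_O against L_O the counts became 3 higher and 3 lower for the regulators, 3 and 5 for lipid handling, 3 and 4 for the partners and 5 lower for the lipoprotein receptors, while the other scavenger receptors stood at 3 and 2 as before. In H_C against L_C the regulators became 4 higher and 6 lower. In H_O against H_C they became 7 higher and 12 lower, against 6 and 8.

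The genes whose log2 CPM ran most like each member over the 16 libraries were taken from the 8362 or 8363 other entries whose mean log2 CPM was 3 or more, by Pearson's r. The libraries form 4 groups, so r mostly reflects group levels, and the value within groups, after each group's mean was removed, is given beside it. Nearest to Cd36 was the haem transporter gene Slc48a1 (r = 0.995, 0.44 within groups), then Tubb4b (0.992, 0.68 within groups) and Alox5ap (0.991, -0.08 within groups). Stab1 ran most like Gas6 (0.992, -0.11 within groups), Otulinl (0.988, 0.16) and Myo7a (0.987, -0.04). Msr1 ran most like the chemokine receptor gene Ccr1 (0.985, 0.72 within groups), then Plbd1 and Slc11a1 (0.66 and 0.41 within groups). Cd5l had Cfp, Atp2a2 and Abhd12 nearest, each at 0.976 to 0.977 and at 0.67 to 0.89 within groups. Cxcl16 ran with Fasn (0.968, 0.72 within groups), C3 (0.963, 0.84) and Dpep2 (0.958, 0.64). Among the 3 nearest to Cd68 were Med15 (0.984, 0.983 within groups, with L_C replicate 4 high in Cd68) and Laptm5 (0.974, 0.982 within groups). For Scarb1 the nearest genes were Prrc2b, Myo9b and Polr2a, for Marco Hivep1, P2ry14 and Sidt2, and for Lrp1 Macf1, Cacul1 and Syne1, all with r from 0.912 to 0.929 and from 0.66 to 0.85 within groups. L_C replicate 4 was also the highest L_C library of Marco (21.5 CPM) and the lowest of Cd5l (19.4 CPM). Between Marco and Cd68 the within-group r went from 0.63 to -0.30 without that library. The within-group values of the nearest genes were not computed without it. Olr1 had the lowest value with its nearest gene, Dyrk2 (0.853, 0.83 within groups).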

How the data were processed

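The file that the authors deposited holds whole-number read counts for each gene in the 16 libraries, without normalization. HISAT2, DESeq2 and the build mm10 are named without versions or roles, per the submitters' processing notes. The counting tool, annotation and strand setting are not given in the sources used here. The 1594 unannotated entries were kept. The test was that of edgeR 4.0.16, run in R 4.3.3 (TMM factors, filterByExpr by group, a mean per group, quasi-likelihood F test, two-sided), with all 16 libraries sharing an estimate of the spread (12 residual degrees of freedom) and p-values adjusted by Benjamini-Hochberg over the 13527 tested entries. Intervals are at the 95% level. CPM used TMM factors, and log2 CPM a prior count of 2. Library totals of 32596640 to 41712885 counts set the counting error. Groups came from the labels, exon lengths and coordinates from GENCODE M21. Same-numbered replicates did not deviate together (r from -0.16 to 0.04), so the numbers were not treated as pairs. Alternatives were other scalings and filters, DESeq2 1.42.0, limma-voom (limma 3.58.1) with and without array weights, the replicate block, fits of the 8 libraries compared, and leaving out each library. The pipeline was tested on simulated counts. The 10 genes and the gene lists were chosen with earlier results of these data known. From each list, up to 4 called genes per comparison with the smallest adjusted p were named, and others to account for small counts after their values were seen. Some genes of the lists enter the counts but are not reported here by name.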

Additional observations from a re-analysis of the deposited data

Results flagged for a closer look

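In 2 of the 40 sets of 4 libraries (10 genes in 4 groups) a single library lay far from the other 3, where the gap to the nearest as a share of the whole range passed Dixon's critical value at the 95% level, which chance passes in about 1 of 20 groups. Cd68 read 3052 CPM in L_C replicate 4 against 1581 to 1648 CPM in the other L_C libraries, a gap of 0.955 of the range, and this is the library with 3.72% mitochondrial counts. Marco read 13.0 CPM in H_C replicate 2 against 11.2 to 11.4 CPM in the other H_C libraries, a gap of 0.920 of the range.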

How the results depend on the processing

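The calls of Cd36, Stab1, Msr1, Cd5l and Cxcl16 with ox-LDL, and of Stab1, Msr1 and Cd5l in H_C against L_C, kept their direction and their side of the threshold under all 26 alternatives. The number of the 10 genes lower in H_O against H_C was 1 with no scaling beyond library totals, against 3. In H_C against L_C the number higher was 1 instead of 2 with RLE size factors, without the low-count filter and in the fit of the 8 libraries compared, and 1 to 2 when each library was left out. The number lower there was 2 instead of 4 with the 8 libraries compared, and 2 to 4 over the leave-outs. In H_O against L_O the number lower was 1 to 2 over the leave-outs. For the difference between the ox-LDL effects the number higher was 2 in DESeq2, 1 in limma-voom with array quality weights and 0 to 1 over the leave-outs. None of the values that changed sign was called: Scarb1 in H_C against L_C was 0.00571 with no scaling and 0.00907 with array weights (-0.0621 to 0.00973 over the leave-outs), Cd68 there 0.000813 with array weights (-0.355 to 0.0258), and, for the difference between the ox-LDL effects, Scarb1 -0.0432 to 0.0287 over the leave-outs and Cd5l 0.0772 with array weights (-0.165 to 0.0961). The cause of these changes was not tested. With the replicate block the call of Marco in H_C against L_C ended (-0.48, adjusted p = 0.0585) and no other call of the 10 genes changed. Over all entries, the block left 1595 higher and 1805 lower in L_O against L_C. The fit of the 8 libraries gave 340 higher and 574 lower in H_C against L_C and 718 and 901 in H_O against L_O, array weights 790 and 1056 in the latter, and for the difference between the ox-LDL effects DESeq2 gave 76 and 15 and array weights 60 and 15. The mean share of counts in H_C was 0.918% with TMM-scaled totals. Depth limits Olr1, with 17 to 124 counts per library.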
